A study of Mus musculus with 13 samples.

Results

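The interleukin 1 family of cytokines and receptors was followed through the mouse mammary gland by 10 genes, found by symbol among the 23951 genes listed in the deposited expression tables. They are the ligand genes Il1a, Il1b, Il18 and Il33, the receptor genes Il1r1, Il1rap and Il1rl1, and the inhibitor genes Il1rn, Il1r2 and Il18bp. All 10 symbols stood in both tables. The rule that names them uses no expression value, but the 10 genes were chosen with earlier results of these data known. RNA from whole, frozen mammary tissue of female mice was sequenced in 13 libraries. Tissue came from conditional Jak1 knockout females (KO), with 4 libraries at day 2 of involution and 3 at day 7 of lactation. Wildtype controls (Con) gave 3 libraries at each of these stages. The sources used here do not name the Cre driver, the cells that lost Jak1, the strain or the age. The series title sets the question, which is the part of Janus kinase 1 in inflammatory cytokine signalling and in remodelling of the gland.

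Interleukin 1 alpha and interleukin 1 beta bind the receptor IL1R1, which then recruits the accessory chain IL1RAP. The assembled receptor signals through the adaptor MyD88 and IRAK kinases to NF-kB and MAP kinases, and not through a Janus kinase bound to the receptor itself. Interleukin 33 uses the same accessory chain beside its own receptor ST2, the product of Il1rl1, which mast cells carry in quantity, while interleukin 18 has a separate receptor pair. The pathway is held back at several points: the antagonist IL1RN occupies IL1R1 without signalling, IL1R2 is a decoy that captures ligand, and IL18BP binds interleukin 18 in solution. In the mammary gland, weaning starts involution, in which milk-producing cells die, acute phase genes are expressed, and leukocytes enter the tissue.

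Promoter sequences are shown for Il1r2 and Il1r1, whose mean FPKM was higher in KO than in Con glands at involution, and for Il1b, whose mean was lower. They come from RefSeq with the build GRCm38.p6, and each window stands on the strand of its gene and ends immediately before the annotated start, except that of Il1r2, which ends with its motif. Il1r2 is at chr1:40085843-40085990 on the plus strand, Il1r1 at chr1:40266336-40266585 on the plus strand and Il1b at chr2:129371140-129371389 on the minus strand. Capitals mark a STAT-type motif in Il1r2 and an NF-kB-type motif, read from the opposite strand, in Il1r1, and Il1b held no match to a searched motif.
Il1r2: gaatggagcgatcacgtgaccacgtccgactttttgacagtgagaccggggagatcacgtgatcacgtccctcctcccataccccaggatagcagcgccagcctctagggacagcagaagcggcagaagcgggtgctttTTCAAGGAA
Il1r1: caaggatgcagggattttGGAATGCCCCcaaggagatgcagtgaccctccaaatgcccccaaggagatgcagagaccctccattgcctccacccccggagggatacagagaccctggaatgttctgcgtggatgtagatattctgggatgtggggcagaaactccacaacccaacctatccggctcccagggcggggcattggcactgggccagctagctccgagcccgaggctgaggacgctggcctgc
Il1b: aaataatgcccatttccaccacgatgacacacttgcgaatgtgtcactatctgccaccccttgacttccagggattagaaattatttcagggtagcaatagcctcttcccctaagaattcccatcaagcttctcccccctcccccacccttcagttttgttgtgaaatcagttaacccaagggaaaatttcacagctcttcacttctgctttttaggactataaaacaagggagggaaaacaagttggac
In 15 RefSeq windows for the 10 genes, the 250 bases before each start were searched on both strands. The STAT-type motif TTCNNNGAA was found in 1 window, that of Il1r2, and in 7.02% of 32851 mouse promoter windows of this length. The AP-1 motif TGANTCA was found in 2 windows, those of Il1rn and Il1a, against 6.75% of all windows. The NF-kB motif was found in 1 window, that of Il1r1, against 3.90% of all windows. Il1r1 has 2 windows and Il1rn has 3, and in each of these genes 1 window held the motif named and the others held none of the 3 motifs. A match describes letters only.

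Levels are given as FPKM, mapped fragments scaled to transcript length and library size, so that genes of different length can be compared. Fragment totals per library are not stated in these sources. The worth of 1 fragment, read from low values, put the relative depth between 0.485 and 1.502 of the table mean at involution, and between 0.723 and 1.29 at lactation. The lowest and the highest of these at involution were both KO libraries, Jak1_43196 and Jak1_44440. Jak1 itself stood at 17.3 to 26.3 FPKM in KO and 24.0 to 24.6 FPKM in Con glands at involution, and at 9.51 to 11.2 FPKM in KO and 6.18 to 14.2 FPKM in Con glands at lactation. A value over the whole gene in whole tissue therefore does not check the genotype labels. Of the luminal epithelial markers, Lalba, Elf5, Krt8 and Krt18 were expressed, whereas the milk genes Wap and Csn2 were listed at 0 in all 13 libraries, so an exact 0 need not mean absence. The milk gene Csn3 stood at 2466 to 15123 FPKM at involution but was listed at 0 in all 6 lactation libraries, so the tables differ in which genes they list at 0. In RefSeq, Il1a, Il1b, Il18, Il33, Il1rap and Il1r2 overlap another annotated gene, and whether the counting used strand is not stated, so fragments of such a pair may not be told apart. The titles number the mice, and Jak1_43767 (KO) and Jak1_43768 (Con) stand at both stages.

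At involution, the ligand, receptor and inhibitor genes lay at low to moderate levels, and none of them passed the test between KO and Con glands. Il1b, the ligand of inflammatory leukocytes, and Il1rap, the shared accessory chain, were lower in every KO library than in every Con library. Il1r1, the signalling receptor, was higher in every KO library than in every Con library. Of the 10 genes, 8 had at least 1 FPKM in at least 3 of the 7 libraries and entered the test of all genes. The limma adjusted p-values of these 8 ran from 0.543 to 0.998, so 0 of 8 passed 0.05, against 9 of 12509 genes (0.0719%). With limma p-values before adjustment, 4 of the 8 lay under 0.05, against 6.84% of all genes tested. Among these 4 is Il1r2, which reached 1 FPKM in 3 KO libraries and 1 Con library. It thus entered the test chiefly through the group in which it was higher. The groups did not overlap in 3 of the 8, with Il1r1 higher in KO (2.67% of all genes) and Il1b and Il1rap lower in KO (4.42% of all genes), where either direction held for 7.09%. These counts describe genes that were chosen with earlier results of these data known. In whole tissue, fewer cells of a type and less RNA per cell cannot be told apart.

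**Figure D1:**
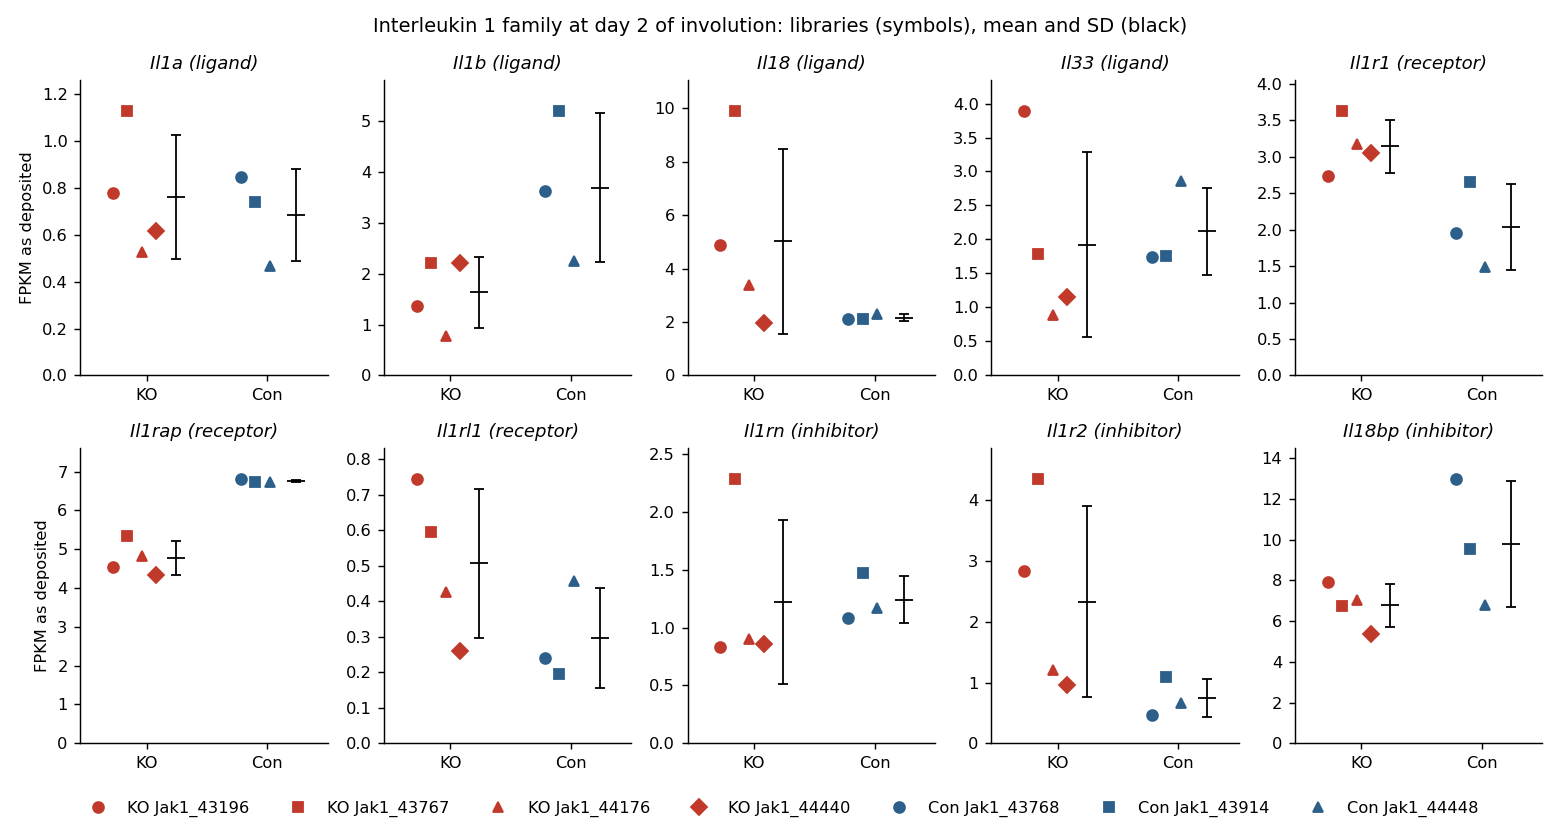
FPKM of the 10 genes at day 2 of involution, 1 panel a gene, with KO libraries (n = 4) left of Con libraries (n = 3) and the mean with its SD in black. Il1b and Il1rap lie lower, and Il1r1 higher, in all KO libraries than in all Con libraries, and the remaining panels overlap.

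Il1b showed 1.37, 2.20, 0.777 and 2.21 FPKM in the KO glands Jak1_43196, Jak1_43767, Jak1_44176 and Jak1_44440, against 2.26, 3.62 and 5.20 FPKM in the Con glands Jak1_44448, Jak1_43768 and Jak1_43914. The highest KO values came within a small margin of the lowest Con value, and the Con glands were spread widely. Means were 1.64 ± 0.697 FPKM in KO (SD, n = 4) and 3.69 ± 1.47 FPKM in Con glands (SD, n = 3). On the scale log2(rescaled FPKM + 1), used for every log2 difference here, KO minus Con was -0.80 ± 0.28 (SE, 95% interval -1.46 to -0.15), with a limma adjusted p of 0.620. Summed FPKM of 9 neutrophil markers, from cells known to transcribe Il1b, were 471, 69.8, 34.9 and 36.2 in the KO glands and 56.6, 164 and 238 in the Con glands, in the same order of libraries. Their highest sum stood in KO gland Jak1_43196, where Il1b was 1.37 FPKM. Of the 5 neutrophil markers tested, 2 had a log2 difference above 0 and 3 below. Summed FPKM of 10 macrophage markers were 741, 405, 448 and 252 in the KO glands and 405, 336 and 293 in the Con glands. Of these 10 markers, 8 had a log2 difference above 0 and 2 below, with a median of 0.35 and 0 passing. The part of either cell type in the Il1b difference was not tested. Il1a, an alarm cytokine of epithelium and leukocytes, stood lower, at 0.528 to 1.13 FPKM in KO and 0.466 to 0.847 FPKM in Con glands, and was below the level needed for the fit. Its log2 difference was 0.07, with an exact permutation p of 0.686 (two-sided, where 4 against 3 libraries cannot go below 0.0286).

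Il18, an epithelial and macrophage cytokine, showed 4.87, 9.89, 3.39 and 1.95 FPKM in the KO glands Jak1_43196, Jak1_43767, Jak1_44176 and Jak1_44440, against 2.30, 2.10 and 2.09 FPKM in the Con glands. Con libraries lay close together, 3 of the KO libraries lay above all of them, and KO gland Jak1_44440 lay below all of them. Means were 5.02 ± 3.46 FPKM in KO (SD, n = 4) and 2.17 ± 0.118 FPKM in Con glands (SD, n = 3). The log2 difference was 0.78 ± 0.39 (SE, 95% interval -0.13 to 1.69) with a limma adjusted p of 0.831, and without KO gland Jak1_43767 it was 0.44. That library stood apart in markers of skin: the summed FPKM of 6 keratinocyte markers was 308, against 2.99 to 4.71 in the other KO and 1.76 to 3.64 in the Con glands. Sbsn, a further marker of the list, stood at 144 to 318 FPKM in every library of involution and was left out of this sum after its values were seen. With it, 7 of 8 listed markers found, the sums were 201 to 475 in KO and 146 to 229 in Con glands. In KO gland Jak1_43767 Krtdap was at 169 FPKM, Krt10 at 53.5, Lor at 43.5 and Krt1 at 38.8. Il33, the nuclear alarm cytokine of stromal and barrier cells, showed 3.88, 1.78, 0.882 and 1.15 FPKM in the KO glands and 2.86, 1.75 and 1.75 FPKM in the Con glands. The groups overlapped, and the log2 difference was -0.16 ± 0.33 (SE, 95% interval -0.92 to 0.60) with a limma adjusted p of 0.996.

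Among the receptors, Il1r1 showed 2.74, 3.62, 3.17 and 3.05 FPKM in the KO glands, against 1.48, 1.96 and 2.66 FPKM in the Con glands. The lowest KO gland stood just above the highest Con gland. Means were 3.15 ± 0.367 FPKM in KO (SD, n = 4) and 2.03 ± 0.591 FPKM in Con glands (SD, n = 3), and the log2 difference was 0.48 ± 0.17 (SE, 95% interval 0.10 to 0.87) with a limma adjusted p of 0.610. Fibroblasts are a known site of Il1r1, and the summed FPKM of 8 fibroblast markers ran from 332 to 878 in KO and from 206 to 469 in Con glands, with overlap. All 8 of these markers had a log2 difference above 0, with a median of 0.79 against 0.01 for all genes, and 0 of them passed the test. The summed FPKM of 8 basal epithelial markers ran from 463 to 546 in KO and from 244 to 416 in Con glands, without overlap. Taken singly, 2.67% of all genes did not overlap with KO higher, and 7.09% in either direction. The highest basal sum, 546, stood in KO gland Jak1_43767, the library with the high keratinocyte sum. Of these basal markers 7 had a log2 difference above 0, with a median of 0.39 and 0 passing. All 8 adipocyte markers had a log2 difference above 0, with a median of 0.67 and 0 passing, and their sums ran from 4583 to 16523 FPKM in KO and from 4221 to 8327 FPKM in Con glands. The 8 endothelial markers had 5 log2 differences above 0 and 3 below, with a median of 0.15 and 0 passing. Their sums overlapped, at 85.8 to 167 FPKM in KO and 89.6 to 128 FPKM in Con glands. The part of these cell types in the Il1r1 difference was not tested.

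Il1rap showed 4.53, 5.35, 4.83 and 4.34 FPKM in the KO glands, against 6.73, 6.80 and 6.74 FPKM in the Con glands. The Con libraries were almost equal, and the widest gap between groups of any of the 3 receptors was seen here. Means were 4.76 ± 0.440 FPKM in KO (SD, n = 4) and 6.76 ± 0.0358 FPKM in Con glands (SD, n = 3). The log2 difference was -0.41 ± 0.12 (SE, 95% interval -0.70 to -0.12) with a limma adjusted p of 0.543, the smallest among the 8 genes in the fit. Leaving out each library in turn moved the Il1rap difference between -0.46 and -0.37. Within a library, Il1rap over Il1r1 in FPKM ran from 1.42 to 1.65 in KO and from 2.54 to 4.54 in Con glands. With Il1rap lower and Il1r1 higher in every KO library, this ratio could only separate the groups and adds no further result. This ratio was formed after the values were seen and is given without a test.

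Il1rl1, the receptor of interleukin 33, was the lowest of the 10 genes, at 0.744, 0.596, 0.426 and 0.261 FPKM in the KO glands and 0.456, 0.239 and 0.195 FPKM in the Con glands. The groups overlapped, and the log2 difference of 0.22 had an exact permutation p of 0.2. Across the KO glands Il1rl1 ran in the same order as the summed FPKM of 9 mast cell markers, which were 129, 111, 41.9 and 15.2, against 46.5, 20.9 and 41.1 in the Con glands. The Con gland Jak1_43914 departed from that order, with a middling marker sum and the lowest Il1rl1. Of the 7 mast cell markers tested, 6 had a log2 difference above 0 and 1 below, with a median of 0.87 and 0 passing. Kit, which enters the marker sum, had a lower mean in KO, at 7.57 FPKM against 11.7 FPKM in Con glands. The part of mast cells was not tested.

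**Figure D2:**
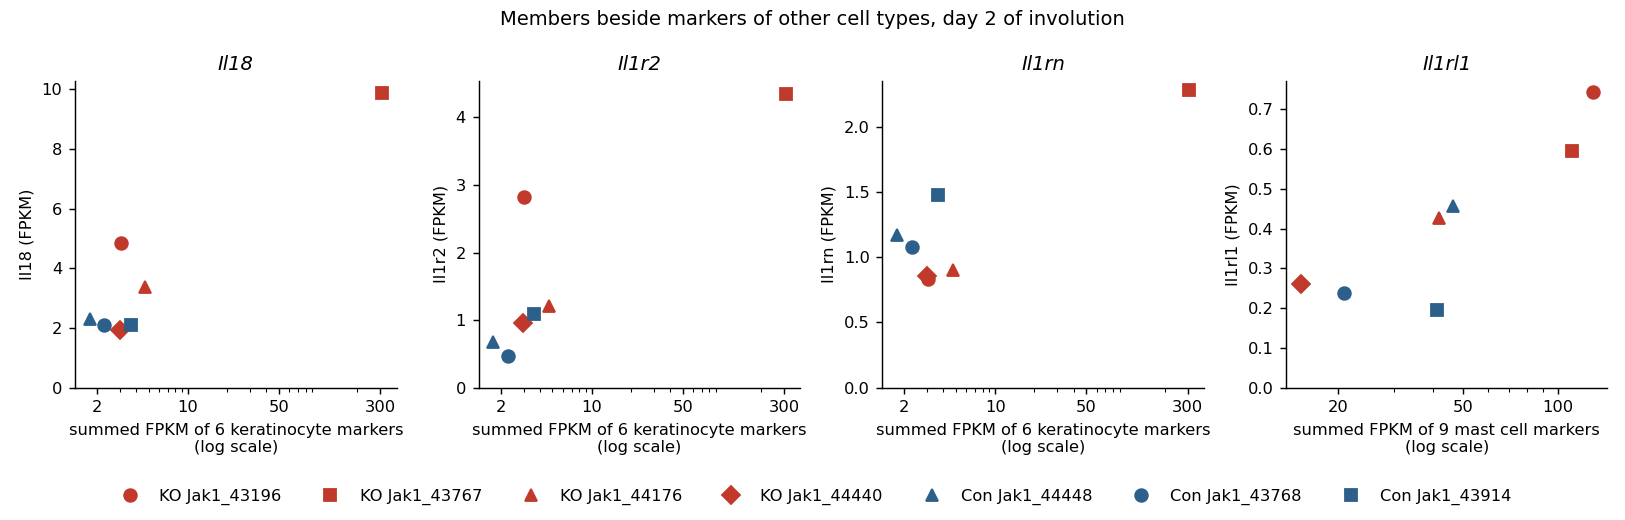
Il18, Il1r2 and Il1rn in FPKM against the summed FPKM of 6 keratinocyte markers, and Il1rl1 against that of 9 mast cell markers, each on a log scale, in the 4 KO and 3 Con libraries of involution. KO gland Jak1_43767 stands alone at a keratinocyte sum of 308 and has the highest Il18, Il1r2 and Il1rn, and the highest Il1rl1 lies in KO gland Jak1_43196 at a mast cell sum of 129.

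The inhibitor genes gave log2 differences of both signs. Il1r2, the decoy receptor, showed 2.83, 4.34, 1.20 and 0.957 FPKM in the KO glands, against 0.669, 0.470 and 1.09 FPKM in the Con glands. KO gland Jak1_44440 lay below the highest Con gland and the other 3 KO glands lay above it. Il1r2 reached 1 FPKM in 3 KO libraries and in 1 Con library, so it entered the test chiefly through the group in which it was higher. The log2 difference was 0.84 ± 0.36 (SE, 95% interval 0.02 to 1.67) with a limma adjusted p of 0.727, and 0.57 without KO gland Jak1_43767. Il1rn, the receptor antagonist, showed 0.835, 2.28, 0.903 and 0.853 FPKM in the KO glands, against 1.17, 1.08 and 1.47 FPKM in the Con glands. In 3 KO glands it was lower than in every Con gland, and KO gland Jak1_43767 was higher than all others. The log2 difference was -0.04 ± 0.24 (SE, 95% interval -0.59 to 0.51) with a limma adjusted p of 0.998.

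Il18bp, which neutralises interleukin 18 and is known as an interferon-induced gene, had the highest mean of the 10 genes in both groups. It showed 7.94, 6.73, 7.02 and 5.37 FPKM in the KO glands, against 6.78, 12.96 and 9.56 FPKM in the Con glands. The KO glands were close together, and 2 Con glands lay above all of them. Means were 6.76 ± 1.06 FPKM in KO (SD, n = 4) and 9.77 ± 3.09 FPKM in Con glands (SD, n = 3), with a log2 difference of -0.42 ± 0.21 (SE, 95% interval -0.91 to 0.07) and a limma adjusted p of 0.831. Without Con gland Jak1_43768 the difference was -0.21. Set against its ligand in the same library, Il18bp over Il18 ran from 0.681 to 2.76 in KO and from 2.95 to 6.16 in Con glands, without overlap. For the antagonist and its ligand, Il1rn over Il1b ran from 0.387 to 1.16 in KO and from 0.284 to 0.516 in Con glands, which overlapped. Il1r2 over Il1r1 ran from 0.314 to 1.20 in KO and from 0.240 to 0.451 in Con glands, with overlap, and Il1b over Il1a from 1.47 to 3.58 in KO and from 4.28 to 7.01 in Con glands, without it. In all 5 such ratios were formed, with the values known, and they carry no test.

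At lactation the family was lower in FPKM, and the KO and Con libraries overlapped in all 10 genes. Of the 9560 genes fitted, which hold only 2 of these 10, 6.06% did not overlap. Only Il1rap and Il18bp had enough signal for the test of all genes, and 0 of these 2 passed, against 1 of 9560 genes (0.0105%). Before adjustment, 0 of the 2 had a limma p under 0.05, against 2.38% of all genes. Il1rap showed 3.98, 1.96 and 2.30 FPKM in the KO glands Jak1_44174, Jak1_42734 and Jak1_43767, against 4.14, 2.00 and 1.64 FPKM in the Con glands Jak1_42186, Jak1_43768 and Jak1_44175. Each group thus held 1 high and 2 lower libraries, with a log2 difference of 0.13 ± 0.33 (SE, 95% interval -0.64 to 0.89) and a limma adjusted p of 0.998. Il18bp showed 2.32, 2.79 and 4.57 FPKM in the KO glands and 3.03, 4.39 and 5.10 FPKM in the Con glands. Its log2 difference was -0.25 ± 0.26 (SE, 95% interval -0.85 to 0.35), with a limma adjusted p of 0.998. With single libraries left out it ran from -0.48 without KO gland Jak1_43767 to -0.09 without KO gland Jak1_44174, and it was -0.38 without Con gland Jak1_42186 and -0.17 without Con gland Jak1_44175.

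The other 8 genes had exact permutation p-values of 0.4 to 0.9 between the KO and Con glands of lactation, where 3 against 3 libraries cannot go below 0.1. Il1b showed 0.456, 0.425 and 1.504 FPKM in the KO glands, against 0.924, 1.23 and 0.810 FPKM in the Con glands. KO gland Jak1_43767 was the highest of the 6 and the other KO glands the lowest. Il33 showed 0.502, 0.123 and 0.104 FPKM in the KO glands, against 0.148, 0.967 and 0.167 FPKM in the Con glands. Its highest value stood in Con gland Jak1_43768, where the summed FPKM of 5 B cell markers was 35.6, against 0.215 to 2.07 in the other 5 libraries, and that of 8 T cell markers was 44.1, against 6.06 to 13.4. Without that gland the log2 difference of Il33 was 0.10, against -0.16 with it, and the part of those cells was not tested. Il1r1 stood at 0.337 to 0.715 FPKM in KO and 0.248 to 0.831 FPKM in Con glands, and Il18 at 0.243 to 0.577 FPKM in KO and 0.131 to 0.393 FPKM in Con glands. Il1r2 ran from 0.282 to 0.963 FPKM in KO and from 0.220 to 0.571 FPKM in Con glands. The lowest values were those of Il1a, Il1rn and Il1rl1, which stayed between 0 and 0.216 FPKM in KO and between 0.0257 and 0.294 FPKM in Con glands. The 0 is Il1rn in KO gland Jak1_44174, where it is listed at 0.

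**Figure D3:**
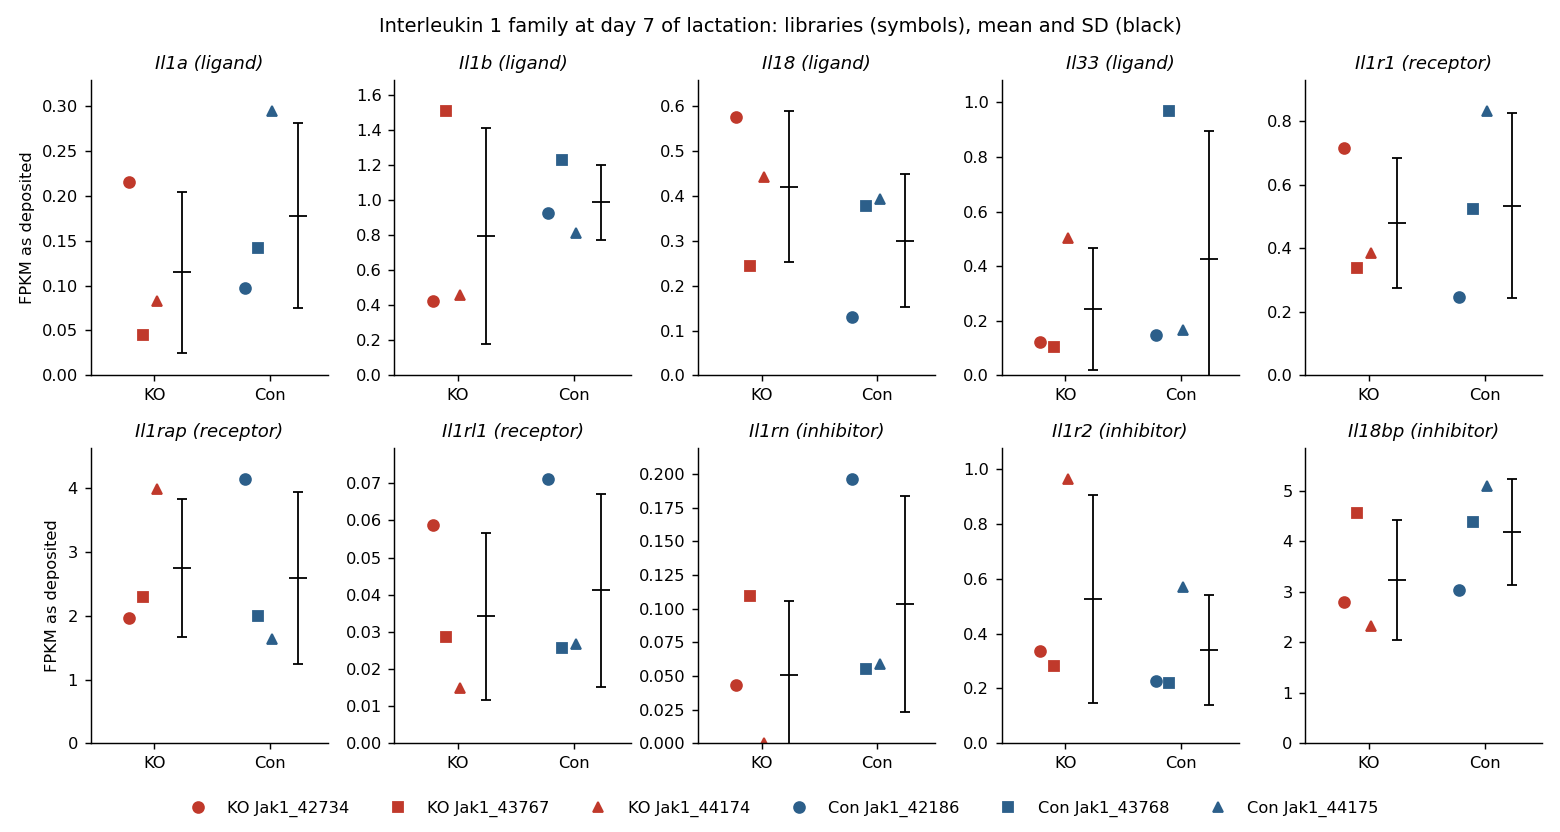
FPKM of the 10 genes at day 7 of lactation, 1 panel a gene, with KO libraries (n = 3) left of Con libraries (n = 3) and the mean with its SD in black. The groups overlap in every panel, and Il1rap and Il18bp are the only genes above 1 FPKM in all 6 libraries.

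The difference of the KO effect between the stages was tested directly, as KO minus Con at involution less KO minus Con at lactation. Of the 8 genes that entered this fit, 0 passed, against 10 of 12667 genes (0.0789%), with limma adjusted p-values of 0.999 to 1.00. Before adjustment 0 of the 8 lay under 0.05, against 3.35% of all genes. Il1r1 had a value of 0.50 ± 0.25 (SE, 95% interval -0.04 to 1.04), Il1r2 of 0.65 ± 0.46 and Il18 of 0.63 ± 0.48. Il1b had a value of -0.64 ± 0.41 and Il1rap of -0.54 ± 0.36 (SE). Il18bp at -0.17 ± 0.34, Il1rn at 0.02 ± 0.29 and Il33 at -0.0031 ± 0.45 lay nearest to 0. Single libraries moved these values: without KO gland Jak1_43767 of involution that of Il18 was 0.29 and that of Il1r2 was 0.38. For Il1b it was -0.36 without KO gland Jak1_43767 of lactation and -0.43 without Con gland Jak1_43914 of involution. For Il1rap it was -0.86 without Con gland Jak1_42186, -0.31 without Con gland Jak1_44175 and -0.31 without KO gland Jak1_44174, all of lactation. The fit took the 13 libraries as independent, although Jak1_43767 and Jak1_43768 stand at both stages. With the mouse number as a random block, chosen after the data were seen, limma called 20 genes instead of 10 and again 0 of the 8, whose adjusted p-values were 0.336 to 0.865. In that blocked fit Il18 stood at 1.20, Il1r2 at 1.13, Il18bp at -0.46, Il1rn at 0.27 and Il33 at 0.38. A KO effect that differs between the stages is therefore not shown for any of these genes.

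**Figure D4:**
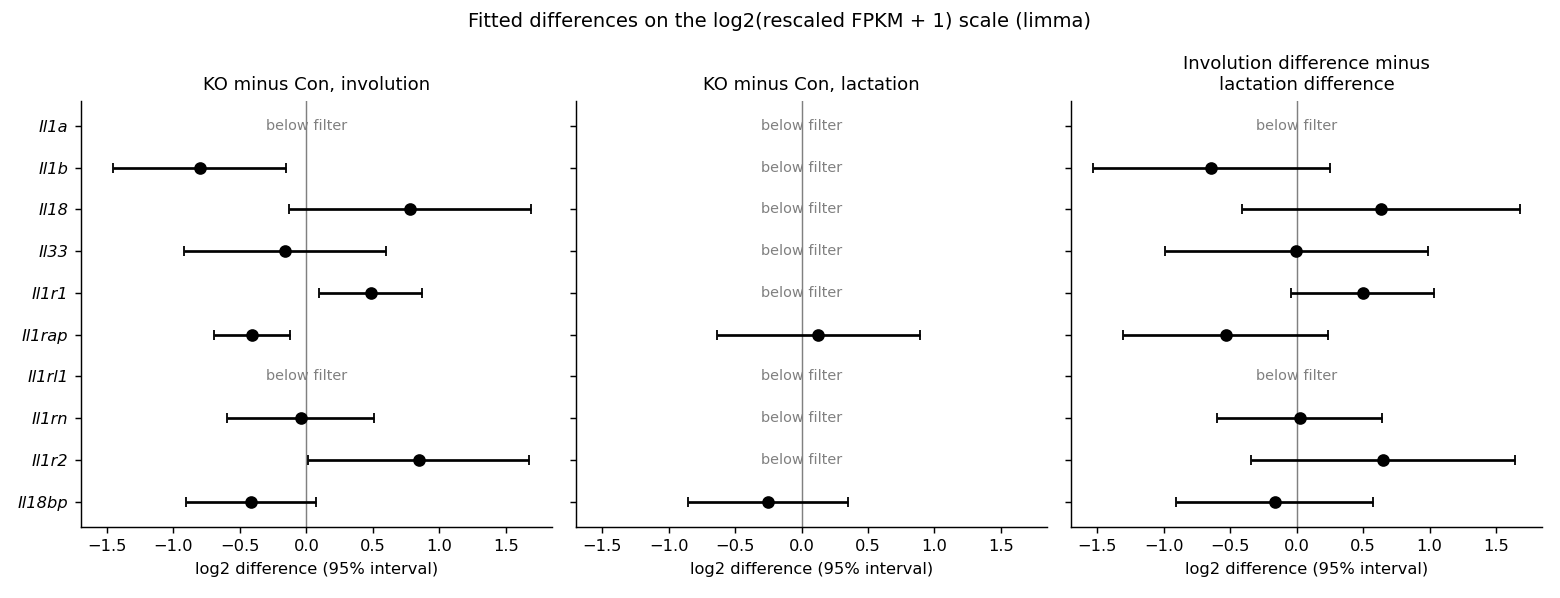
KO minus Con on the log2(rescaled FPKM + 1) scale for the genes at involution and at lactation, with 95% intervals from limma, and the interaction of genotype and stage. At involution the intervals of Il1r1 and Il1r2 lie above 0 and those of Il1b and Il1rap below 0, before any adjustment for the number of genes.

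The tables of the 2 stages may have been scaled separately, and differ in genes listed at 0, so their levels are set side by side without a test. Every involution library lay above every lactation library for 7 of the 10 genes, against 64.8% of 12667 genes fitted over the 13 libraries. The exceptions were Il1b, Il1r2 and Il33, while Il1a and Il1rl1 lay below the filter that gave the 12667. Within KO such separation held for 8 of the 10 genes, against 80.1% of all genes, and within Con for 9 of the 10, against 73.3%. Within KO the ratio of the mean FPKM at involution over that at lactation was 23.9 for Il1rn, 14.8 for Il1rl1 and 11.9 for Il18, against a median of 2.91 for all genes. Within Con the ratio was 12.01 for Il1rn, 7.21 for Il1rl1 and 7.21 for Il18, against a median of 2.73. The lactation values in these ratios were near 0, in KO 0 to 0.109 FPKM for Il1rn and 0.0150 to 0.0588 FPKM for Il1rl1. In Con they were 0.0550 to 0.196 FPKM for Il1rn and 0.0257 to 0.0711 FPKM for Il1rl1. The KO mean of Il1rn at involution was also raised by 1 library, Jak1_43767 at 2.28 FPKM. The ratio was 1.73 in KO and 2.61 in Con for Il1rap, 2.06 in KO and 3.74 in Con for Il1b, 2.10 in KO and 2.34 in Con for Il18bp, and 4.43 in KO and 2.19 in Con for Il1r2, whose Con value was the lowest in that genotype. Because the scale of a table cancels in ranks, each gene was also placed among the genes above 0 in its library, from 0% at the top. Detection does not cancel, since 16204 to 17373 genes stood above 0 at involution and 14546 to 15327 at lactation. Il18 had a median rank of 51.9% in KO and 62.3% in Con glands at involution, and of 73.7% in KO and 77.4% in Con glands at lactation. Il18bp had a median rank of 40.7% in KO and 34.4% in Con at involution, and 42.5% in KO and 33.5% in Con at lactation. Il1rap had 48.6% in KO and 41.9% in Con at involution, and 46.1% in KO and 50.4% in Con at lactation.

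**Figure D5:**
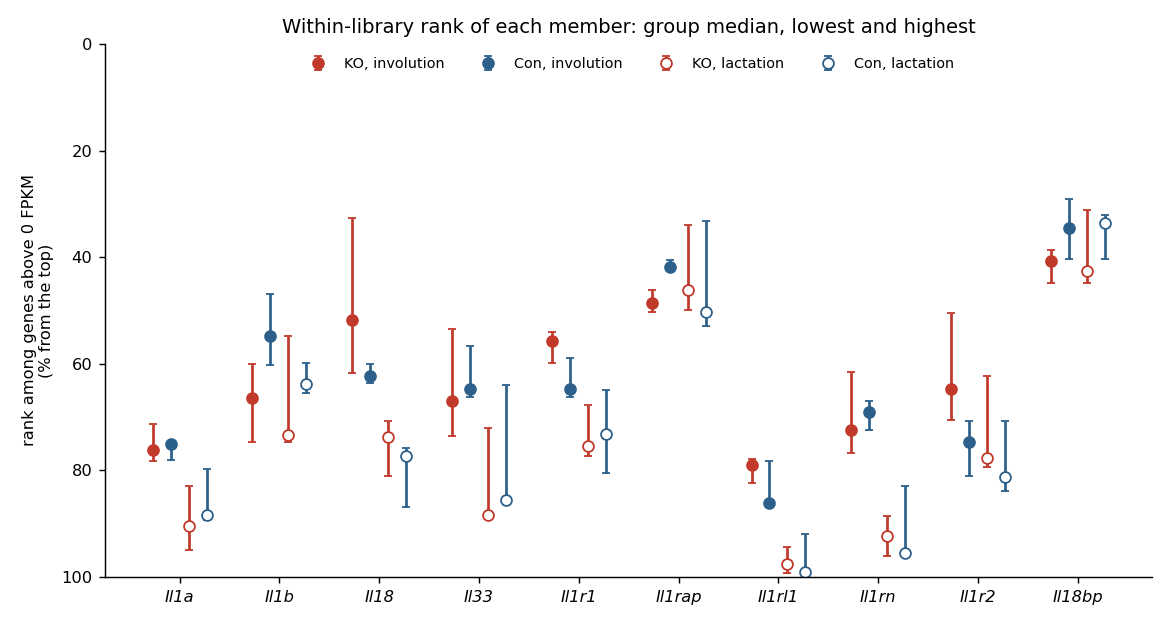
Place of each of the 10 genes among the genes above 0 FPKM in its library, in percent from the top, for KO and Con glands at involution and lactation. Il18bp has medians within 33.5% to 42.5% in all 4 groups, whereas Il18 has medians of 51.9% in KO and 62.3% in Con at involution and of 73.7% in KO and 77.4% in Con at lactation.

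By mean FPKM, Il18bp led in each of the 4 groups and Il1rl1 came last in each. In KO glands at involution the order was Il18bp, Il18, Il1rap, Il1r1, Il1r2, Il33, Il1b, Il1rn, Il1a and Il1rl1. In that order only Il1rap and Il1r1 were neighbours whose ranges stood apart. In Con glands at involution the order was Il18bp, Il1rap, Il1b, Il18, Il33, Il1r1, Il1rn, Il1r2, Il1a and Il1rl1. There the ranges stood apart between Il1rap and Il1b, between Il1r1 and Il1rn, and between Il1a and Il1rl1. At lactation Il1rap came second and Il1b came next in both genotypes, and the step from Il1rap to Il1b was the only one whose neighbours stood apart.

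Across the 13 libraries, with each table centred on its own mean, the pair most alike was Il1r2 and Il18, with a Pearson correlation of 0.90. Il1rl1 followed Il18 at 0.75, and Il1rap ran against Il1r1 at -0.66. Centring was by table and not by genotype, so the opposite KO differences of Il1rap and Il1r1 at involution enter this value. Of 9428 genes tested in both tables, those most like Il1rap were Golm1, Hn1l and Bace1, at 0.91, 0.90 and 0.89. Those most like Il18bp were Hbb-bs at 0.82, Ccni at 0.80 and Rtp4 at 0.79. These are descriptions of libraries that differ in depth and cell content, with the KO gland Jak1_43767 at the top of both Il1r2 and Il18.

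The remaining ligands and receptors of the family gave no call either. Of 11 listed genes 4 were tested at involution, with 2 log2 differences above 0 (51.8% of all genes) and 2 below (48.2%), a median of 0.22 against 0.01 for all genes, and 0 passing. Il18r1, a chain of the interleukin 18 receptor, showed 9.35, 5.88, 8.45 and 4.58 FPKM in the KO glands Jak1_43196, Jak1_43767, Jak1_44176 and Jak1_44440, against 1.28, 4.61 and 3.85 FPKM in the Con glands. The groups overlapped by the narrow margin between 4.58 and 4.61, and the log2 difference was 1.01 ± 0.34 (SE) with a limma adjusted p of 0.599. Il1rl2, the receptor of the interleukin 36 cytokines, averaged 1.72 FPKM in KO and 3.26 FPKM in Con glands, with a log2 difference of -0.61 ± 0.23 (SE) and a limma adjusted p of 0.657. In RefSeq these receptor genes stand in a row on chromosome 1, in the order Il1r2, Il1r1, Il1rl2, Il1rl1, Il18r1 and Il18rap. The log2 differences of Il1r2, Il1r1, Il1rl1 and Il18r1 were above 0, and that of Il1rl2, between Il1r1 and Il1rl1, was below it. Il1f5, Il1f8 and Il1f10, relatives known from skin, stood at 1.10, 0.54 and 0.96 FPKM in the KO gland Jak1_43767 of involution and were listed at 0 in the other 12 libraries. They were named after their values were seen. Il1f6 was highest there too, at 0.470 FPKM, but stood at 0.215 FPKM in Con gland Jak1_43914. Il1f9, interleukin 36 gamma, did not set that library apart, at 16.4 FPKM there, 16.4 in Con gland Jak1_44448 and 16.2 in KO gland Jak1_44440. Its involution means were 13.2 FPKM in KO and 10.2 FPKM in Con glands. At lactation 4 of the 11 were tested and 0 passed, with 3 above 0 (51.2% of all genes), 1 below (48.8%) and a median of 0.08. Il1f9 averaged 1.70 FPKM in KO and 2.60 FPKM in Con glands of lactation, with a log2 difference of -0.36 ± 0.32 (SE) and a limma adjusted p of 0.998.

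Downstream of the receptor, the list of adaptors and kinases was tested in full at involution, with 14 of 15 log2 differences below 0 and 0 passing. Its median was -0.17, against 0.01 for all genes, of which 48.2% lay below 0. Myd88, the adaptor of the receptors, showed 28.9, 29.0, 28.7 and 38.1 FPKM in the KO glands, against 34.9, 37.3 and 52.2 FPKM in the Con glands. KO gland Jak1_44440 lay above 2 of the Con glands, and the log2 difference was -0.36 ± 0.19 (SE) with a limma adjusted p of 0.856. Irak4, the first kinase at the adaptor, averaged 6.10 FPKM in KO and 8.35 FPKM in Con glands, with a log2 difference of -0.36 ± 0.16 (SE) and a limma adjusted p of 0.743. It ran from 5.60 to 6.61 FPKM in KO and from 7.22 to 10.6 FPKM in Con glands. These groups did not overlap, as in 4.42% of all genes with KO lower and 7.09% in either direction. At lactation 14 of the 15 were tested, with 10 below 0, a median of -0.10 and 0 passing. The 2 with the smallest p at lactation were Tab1 at 0.30 ± 0.19 and Tab3 at -0.21 ± 0.19 (log2 difference, SE), both with a limma adjusted p of 0.998.

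Of 14 genes for the maturation and release of these cytokines, 9 were tested at involution, with 6 differences above 0, 3 below, a median of 0.13 and 0 passing. Gsdmd, the pore through which mature interleukin 1 beta leaves a cell, averaged 9.63 FPKM in KO and 6.73 FPKM in Con glands, with a log2 difference of 0.47 ± 0.24 (SE) and a limma adjusted p of 0.859. P2rx7, the ATP-gated channel that triggers the inflammasome, had a log2 difference of 0.22 ± 0.18 (SE) with a limma adjusted p of 0.954. At lactation 7 were tested, with 2 above 0, 5 below, a median of -0.09 and 0 passing. Casp1, the protease that cleaves interleukin 1 beta and interleukin 18, averaged 2.37 FPKM in KO and 4.33 FPKM in Con glands of lactation. Its log2 difference was -0.64 ± 0.30 and that of the related Casp4 was -0.64 ± 0.26 (SE), both with a limma adjusted p of 0.998. Casp4 ran from 1.40 to 1.57 FPKM in KO and from 1.73 to 4.76 FPKM in Con glands of lactation. The groups did not overlap in Casp4, as in 6.06% of all genes in either direction, and overlapped in Casp1.

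Genes known to respond to interleukin 1 were split in direction. Of 20 listed, 13 were tested at involution, with 5 differences above 0, 8 below, a median of -0.11 and 0 passing. Mmp3, the matrix protease stromelysin, showed 101, 36.9, 59.3 and 59.9 FPKM in the KO glands, against 33.8, 12.9 and 33.3 FPKM in the Con glands. The groups did not overlap, as in 2.67% of all genes with KO higher and 7.09% in either direction. The log2 difference was 1.29 ± 0.42 (SE) with a limma adjusted p of 0.576. At lactation Mmp3 showed 8.89, 4.96 and 4.94 FPKM in the KO glands, against 2.93, 1.25 and 3.26 FPKM in the Con glands. There too the groups did not overlap, as in 6.06% of all genes in either direction. The log2 difference was 1.125 ± 0.31 (SE) with a limma adjusted p of 0.998. Mmp3 was named for having the smallest p of this list at both stages. Mmp3 is transcribed by fibroblasts, whose 8 markers lay above 0 in log2 difference at both stages, with a median of 0.71 at lactation and 0 passing. This was not particular to fibroblasts. All 8 adipocyte markers also lay above 0 at both stages, with a median of 0.76 at lactation. All 6 endothelial markers tested at lactation lay above 0, with a median of 0.64. At involution 5 endothelial markers lay above 0 and 3 below. The part of these cell types in the Mmp3 difference was not tested. Lif, a cytokine known in involution, showed 8.98, 14.9, 3.54 and 18.5 FPKM in the KO glands, against 3.70, 2.89 and 6.97 FPKM in the Con glands of involution. The groups overlapped, and the log2 difference was 1.07 ± 0.50 (SE) with a limma adjusted p of 0.781. At lactation 5 of the 20 were tested, with 3 above 0, 2 below, a median of 0.05 and 0 passing, and Ptges, which makes prostaglandin E, had a log2 difference of 0.49 ± 0.25 (SE) with a limma adjusted p of 0.998. For the KO effect at involution less that at lactation, 0 genes passed in any of these 4 lists, with limma adjusted p-values of at least 0.999. The genes with the smallest p in this contrast were Il1rl2 at -0.73 and Il1f9 at 0.86, Irak3 at -0.41 and Tollip at -0.28, Casp4 at 0.77 and Gsdmd at 0.42, and Ptges at -0.80 and Lif at 1.03 (log2).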

How the data were processed

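Total RNA of flash-frozen mammary tissue was prepared with RNeasy columns and the TruSeq RNA kit and sequenced on a HiSeq2000, per the labels' protocols. Each stage has its own table of FPKM for 23951 symbols, deposited by the authors. Per the submitters' processing notes CASAVA, cutadapt and TopHat were used with build mm9, with no program, annotation or scaling stated for the FPKM step. Other columns of sample values numbered 0. Depth per library is known only in relative terms, so no counting intervals are given.

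In each table a size factor per library, the median ratio to a reference library over genes with 1 FPKM or more throughout, rescaled the values (0.980 to 1.02 at involution, 0.954 to 1.12 at lactation). They entered as log2(rescaled FPKM + 1), which understates the change of low genes. FPKM are printed as deposited. A gene was fitted where 3 or more libraries reached 1 FPKM, by limma 3.58.1 under R 4.3.3 with a mean-dependent prior variance. The two-sided p-values were adjusted by Benjamini-Hochberg across every fitted gene, and 0.05 was the threshold. The scripts were tested on simulated data. Stages were fitted apart because the tables may have been normalized separately, and the interaction was fitted over all 13 libraries, taken as independent. Genes below the filter got an exact permutation test over libraries. Libraries within a group carry different mouse numbers. Exact zeros entered as 0.

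The 10 genes and the pathway and marker lists were chosen with earlier results of these data known. The text names all 10, the 2 genes of each pathway list with the smallest p in a contrast, the 3 genes most correlated with each gene tested in both tables, and markers at 0 or moving with a result. Il1f5, Il1f6, Il1f8, Il1f10, Il18rap and the within-library ratios were chosen after values were seen. Alternatives covered the pseudocount, filter, scaling, array weights, robust moderation, genes at 0 and each library left out, and for the interaction a block for the mouse number (limma duplicateCorrelation). Promoters are from RefSeq tables of GRCm38.p6, not the build of the FPKM, and are used as sequence only.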

Additional observations from a re-analysis of the deposited data

Results flagged for a closer look

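Il1rn in KO glands at involution held 1 library far from the others. KO gland Jak1_43767 stood at 2.28 FPKM and the other 3 KO glands at 0.835 to 0.903 FPKM, so the gap to the nearest was 0.953 of the group's whole range, above Dixon's 95% critical value for 4 samples. In all, 10 groups of 4 libraries were examined this way, and chance alone marks about 1 in 20. The same library had a summed FPKM of 308 over 6 keratinocyte markers, and the part of those cells in the Il1rn value was not tested. Without it the Il1rn difference of KO minus Con at involution was -0.25 on the log2 scale, against -0.04 with it.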

How the results depend on the processing

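Of 370 recomputed limma values of the 10 genes, 0 passed the threshold. Of 102 exact permutation tests among the alternatives, 94 had too few libraries to reach it and 0 of the other 8 passed. In all, 17 of 28 differences kept their sign throughout. At involution the limma adjusted p ranged over the alternatives from 0.337 for Il1rap, 0.307 for Il1r1 and 0.389 for Il1b up to 1.00. The count of genes passing at involution, 9, was 20 with array weights, 14 with robust moderation, 27 with the spread from all 13 libraries, 1 without genes listed at 0 in a whole group, and 2 to 9 with each library left out (lowest without the Con glands, at 2, 2 and 3). At lactation the count of 1 was 2 with a pseudocount of 0.1, 2 when scaled to the total outside milk proteins and short RNAs, 9 with array weights, 2 with the spread from all 13 libraries, 0 without genes listed at 0 in a whole group, and 0 to 3 with each library left out (0 without any of the KO glands, 2 without Con gland Jak1_42186, 3 without Con gland Jak1_44175). For the interaction the count of 10 was 16 with array weights, 20 with a replicate block, 1 without genes listed at 0 in a whole group, and 6 to 12 with each library left out (6 without KO gland Jak1_42734 of lactation or Con glands Jak1_43768 or Jak1_43914 of involution). The causes of these shifts were not tested, beyond the fewer genes tested when those at 0 are left out. The sign turned for Il1a at involution with quantile normalization (-0.025), Il1rn at involution with array weights (0.11), Il1r1 at lactation under the milk-free total (0.075), Il1rn in the interaction with quantile normalization (-0.067), and Il33 in the interaction with a pseudocount of 0.1 (0.13), the milk-free total (0.0077), array weights (0.50) and the replicate block (0.38). With each library left out, the involution differences ran from -0.023 to 0.14 for Il1a, -0.44 to 0.014 for Il33 and -0.25 to 0.033 for Il1rn. Those at lactation ran from -0.30 to 0.10 for Il33, -0.14 to 0.10 for Il1r1, -0.10 to 0.45 for Il1rap, -0.026 to 0.014 for Il1rl1 and -3.55e-05 to 0.31 for Il1r2. Interaction values ran from -0.28 to 0.17 for Il33, -0.18 to 0.10 for Il1rn and -0.36 to 0.067 for Il18bp. Within a stage, no paired analysis was possible because KO and Con share no mouse number there, so the replicate block, the mouse number as a random effect, was fitted for the interaction only. It was added after the data were seen, and its correlation of 0.697 rests on 2 shared numbers.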
